A study of Homo sapiens with 4 samples.

Results

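The genes that encode transfer RNAs were examined for peaks of BAF45D, which DPF2 encodes and which belongs to the BAF complex, a remodeller of chromatin, in neural stem cells (NSC) and in the embryonic stem cells (ESC) from which they were made. The members were the genes of biotype tRNA on chromosomes 1 to 22 in the RefSeq table of GRCh38.p14 whose symbol carries an isodecoder number and a copy number. There were 419 of them among 56756 genes of those chromosomes. A tRNA gene was said to have a peak in a library when a deposited peak of that library overlapped the gene or the 200 bp on either side. Such peaks numbered 123 of 28887 in NSC1 and 128 of 23942 in NSC2, against 147 of 4054 in ESC1 and 225 of 12159 in ESC2. In a symbol such as TRY-GTA2-1, the letter after TR is the amino acid, the next 3 letters are the anticodon, and the numbers that follow give the isodecoder (a distinct tRNA sequence with that anticodon) and the copy of it.

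A tRNA carries an amino acid to the ribosome and reads a codon of the messenger RNA through its anticodon. Its gene is short and is transcribed by RNA polymerase III, which is directed by promoter elements inside the gene, called the A box and the B box, through the factors TFIIIC and TFIIIB. The human genome holds many near-identical copies of each tRNA gene, and the copies gather in clusters, of which the best known lies beside the histone genes on the short arm of chromosome 6.

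The study measured where BAF45D lies on DNA by CUT&Tag, in which an antibody bound to its target directs a transposase to cut and tag the DNA nearby. Libraries NSC1 and NSC2 came from spinal cord neural stem cells derived from the H9 line, and libraries ESC1 and ESC2 from undifferentiated H9 cells, an established human embryonic stem cell line, kept on Matrigel in mTeSR1 medium. The NSC were made in N2B27 medium with LDN-193189, SB431542, CHIR-99021, FGF2, FGF8 and DAPT, with Y-27632 at passages. After 10 days they were moved to N2B27 with SB-431542, CHIR-99021 and Hh-Ag 1.5, and finally to N2B27 with FGF2 and epidermal growth factor. All 4 libraries used 1 rabbit antibody against BAF45D and 100000 cells each, both cell types come from 1 cell line, and no allele was altered in either. The labels do not say whether the 2 libraries of a cell type came from separate cultures, so the spread between them may be technical.

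The lists differed in length and in depth. The NSC libraries had 5566407 and 5377831 tags, against 20734829 and 18953543 tags in the ESC libraries. Their peaks covered 11.4 Mb in NSC1 and 8.91 Mb in NSC2, against 1.27 Mb in ESC1 and 4.00 Mb in ESC2. The part of these differences in the results below was not tested, except that the overall counts and the presence classes of tRNA genes were recomputed with every list cut to 1 length. The counts by amino acid, anticodon, cluster, distance, isodecoder and pathway were not recomputed in that way. Among markers of the cell types, NES and SOX1, genes of neural stem cells, had peaks within 1 kb of their ends in both NSC libraries and in neither ESC library. The pluripotency genes POU5F1 and NANOG had no peak in any of the 4 libraries, so the markers looked up give no positive mark of the ESC. Of all 19126 protein-coding genes, 16.4% had such peaks in both NSC libraries and neither ESC library, and 50.5% had none in any library.

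Sequence was at hand where a tRNA gene lay within the RefSeq promoter window (250 bases before to 50 after the start) of a neighbouring gene. This held for 14 of the 419 tRNA genes, and 6 of these windows are shown because they pair copies of the same tRNA that had different peaks, or carry a gene named below. The 2 pairs were chosen after their values were seen. All sequences are from RefSeq, GRCh38.p14, written 5′ to 3′ on the strand of the neighbouring gene, with the tRNA gene in capitals. For ANG, OR1F1 and SHF, which are protein-coding, the window ends where the gene starts. The first pair is TRP-TGG3-2, before ANG, on the plus strand at chr14:20683927-20684176, with a peak in all 4 libraries, and TRP-TGG3-5, before OR1F1, on the plus strand at chr16:3187954-3188203, with a peak in none.
TRP-TGG3-2: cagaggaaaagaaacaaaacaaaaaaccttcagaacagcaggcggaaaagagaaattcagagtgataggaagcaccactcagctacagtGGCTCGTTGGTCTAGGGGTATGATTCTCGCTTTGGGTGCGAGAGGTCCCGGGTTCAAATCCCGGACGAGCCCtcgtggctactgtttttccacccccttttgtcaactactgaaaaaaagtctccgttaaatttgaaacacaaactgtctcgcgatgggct
TRP-TGG3-5: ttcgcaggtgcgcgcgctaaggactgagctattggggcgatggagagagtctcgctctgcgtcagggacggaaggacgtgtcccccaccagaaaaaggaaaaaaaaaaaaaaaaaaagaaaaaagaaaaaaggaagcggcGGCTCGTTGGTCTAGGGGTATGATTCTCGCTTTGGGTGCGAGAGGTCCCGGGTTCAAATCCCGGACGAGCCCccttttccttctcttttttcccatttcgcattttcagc
The tRNA parts of these proline tRNA genes were identical at 72 of 72 positions, while the 35 bases printed before them matched at 10 of 35 positions. The −log10 q of a peak is the authors' measure of its strength against the background of its own library, and a higher value is a stronger peak. TRP-TGG3-2 had −log10 q values of 6.80 in NSC1 and 5.41 in NSC2, against 14.4 in ESC1 and 41.9 in ESC2. The NSC peaks covered TRP-TGG3-2 alone, whereas the ESC peaks also covered its neighbour TRY-GTA5-5, so the ESC values belong to both genes. These 2 copies with the same letters thus differed in whether a peak was listed. Whether the flanking sequence, the position or the placing of reads bears on that was not tested.

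The second pair is TRH-GTG1-9, before SHF, on the minus strand at chr15:45201117-45201366, with a peak in both ESC libraries and no NSC library, and TRH-GTG1-3, at the start of LINC01731, on the minus strand at chr1:148281174-148281473, with a peak in none.
TRH-GTG1-9: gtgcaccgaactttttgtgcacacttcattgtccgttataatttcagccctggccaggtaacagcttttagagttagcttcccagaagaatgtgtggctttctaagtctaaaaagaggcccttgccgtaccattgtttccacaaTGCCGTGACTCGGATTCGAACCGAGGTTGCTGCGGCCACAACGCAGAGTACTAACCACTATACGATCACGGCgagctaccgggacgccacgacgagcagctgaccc
TRH-GTG1-3: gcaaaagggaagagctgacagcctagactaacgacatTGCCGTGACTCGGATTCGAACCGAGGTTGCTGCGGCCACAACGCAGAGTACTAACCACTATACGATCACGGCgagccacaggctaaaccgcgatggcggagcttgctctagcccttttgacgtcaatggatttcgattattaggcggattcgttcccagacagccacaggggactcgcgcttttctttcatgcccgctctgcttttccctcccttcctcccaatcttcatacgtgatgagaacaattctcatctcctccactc
These histidine tRNA genes were also identical at 72 of 72 positions, and the 35 bases printed before them matched at 15 of 35. Their B box letters lie on the opposite strand, so these 35 bases follow the end of the tRNA gene. The proline genes hold such letters, GTTCAAATC, on the printed strand, so there the 35 bases precede the tRNA gene. The 2 pairs were thus compared on opposite sides. TRH-GTG1-9 had −log10 q values of 7.21 in ESC1 and 22.8 in ESC2, and the nearest NSC peaks lay 463 bp away in NSC1 and 435 bp away in NSC2.

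The last windows hold a gene with peaks in the NSC libraries alone, TRG-CCC2-2 at the start of LOC100287175, plus strand, chr16:636702-637001, and a gene with peaks in the ESC libraries alone, TRL-AAG2-2 at the start of LINC01556, plus strand, chr6:28943534-28943833.
TRG-CCC2-2: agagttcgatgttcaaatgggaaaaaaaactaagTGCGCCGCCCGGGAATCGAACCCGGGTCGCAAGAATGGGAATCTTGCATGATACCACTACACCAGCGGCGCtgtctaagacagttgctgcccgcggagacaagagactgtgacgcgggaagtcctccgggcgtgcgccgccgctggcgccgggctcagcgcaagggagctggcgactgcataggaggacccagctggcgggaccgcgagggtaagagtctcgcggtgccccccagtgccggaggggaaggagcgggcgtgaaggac
TRL-AAG2-2: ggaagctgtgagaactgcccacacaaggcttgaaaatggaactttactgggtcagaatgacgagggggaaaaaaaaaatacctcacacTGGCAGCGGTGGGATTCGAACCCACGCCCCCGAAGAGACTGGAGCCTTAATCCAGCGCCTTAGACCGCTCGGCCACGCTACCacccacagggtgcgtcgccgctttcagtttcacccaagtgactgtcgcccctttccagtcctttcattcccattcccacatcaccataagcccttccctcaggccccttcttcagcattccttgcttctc
The B box letters GTTCNANNC, searched on both strands, were in 14 of 14 tRNA genes, and 2626 of 35116 promoter windows of this length hold them (7.48%). A stricter form of the box, which has G as the fifth letter, another G before the first and another C after the last, was in 9 of the 14 tRNA genes, against 65 of the 35116 windows (0.185%). TTTTT, the letters at which polymerase III stops, was on one or other strand in 8 of the 14 windows and in 13778 of all windows (39.2%). TATAAA was in 1 of the 14 windows and in 4049 of all windows (11.5%). A match describes the letters and is not a measured site. In TRH-GTG1-9, TRH-GTG1-3, TRG-CCC2-2 and TRL-AAG2-2 the strict B box lay on the strand opposite to the neighbouring gene.

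BAF45D peaks were listed at a large share of tRNA genes in both cell types. A peak lay at 151 tRNA genes in NSC1 (36.0%, 95% Wilson interval 31.6 to 40.7) and at 149 in NSC2 (35.6%, 31.1 to 40.3). In ESC1 there were 160 (38.2%, 33.7 to 42.9) and in ESC2 252 (60.1%, 55.4 to 64.7). Both NSC libraries were below both ESC libraries, but ESC1 lay close to the NSC libraries and ESC2 far above them. These intervals cover counting error only and treat genes as separate, although 65 of the 272 genes with a peak in any library shared 29 peak entries.

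Other short genes seldom had a peak. Of 6231 other RefSeq genes of up to 200 bp, with the same 200 bp on either side, 2.62% in NSC1 and 2.04% in NSC2 had one, against 0.61% in ESC1 and 1.73% in ESC2. The share of tRNA genes was above that of short genes by 33.4 and 33.5 percentage points in the NSC libraries, and by 37.6 and 58.4 in the ESC libraries. It was higher in 4 of 4 libraries, by 40.7 ± 11.9 points on average (SD, n = 4), with p = 0.13 in a two-sided exact sign-flip permutation test. That is the smallest p that 4 libraries allow, so the test cannot pass 0.05.

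The ends of protein-coding genes followed another order. Of 19126 such genes, 36.9% in NSC1 and 32.4% in NSC2 had a peak within 200 bp of an end, against 4.84% in ESC1 and 17.6% in ESC2. In the NSC libraries tRNA genes and coding gene ends had like shares, with differences of −0.90 and 3.18 points. In the ESC libraries tRNA genes stood above coding gene ends by 33.3 and 42.5 points. The mean difference of 19.5 ± 21.6 points (SD, n = 4) had p = 0.25 by the same exact sign-flip permutation test.

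**Figure D1:**
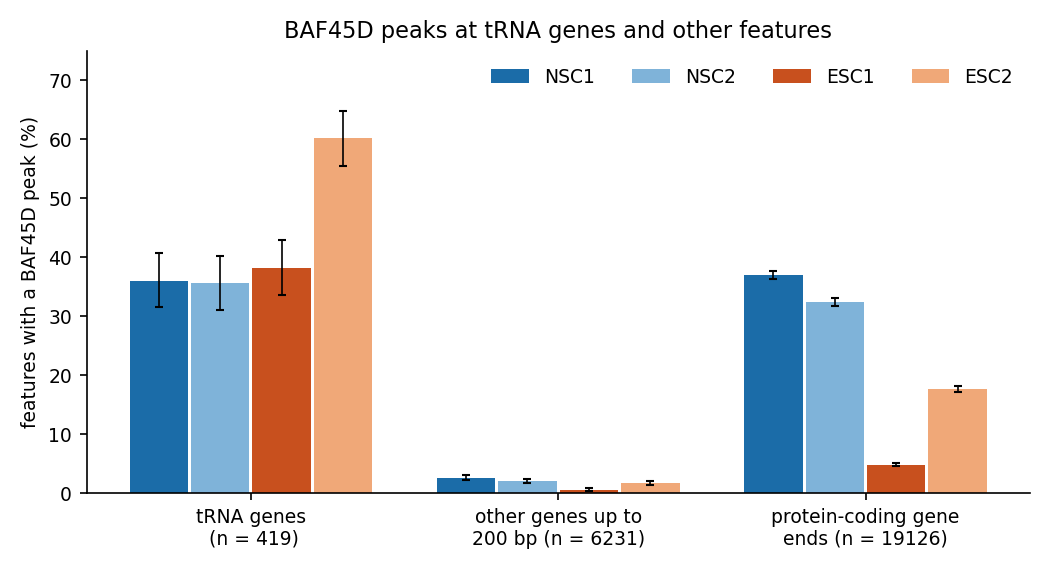
The vertical axis gives the percent of features with a BAF45D peak within 200 bp in NSC1, NSC2, ESC1 and ESC2, for tRNA genes, other genes of up to 200 bp and ends of protein-coding genes, and the lines are 95% Wilson intervals. The 4 bars for tRNA genes stand between 35.6% and 60.1%, above the bars for other short genes in every library. The bars for coding gene ends are higher in the NSC libraries than in the ESC libraries.

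Between the cell types, the mean number of tRNA genes with a peak was 150 ± 1.41 in the NSC libraries and 206 ± 65.1 in the ESC libraries (SD over 2 libraries each), a difference of −56 genes and a ratio of 0.728. Other short genes with a peak numbered 145 ± 25.5 in NSC and 73 ± 49.5 in ESC, a difference of 72. Coding genes with a peak at an end numbered 6629.5 ± 616 in NSC and 2146 ± 1725 in ESC, a difference of 4483.5. The tRNA genes were thus lower in NSC, while the other features were higher in NSC. The two-sided exact permutation test gave p = 0.33 for each of these comparisons, the smallest that 2 libraries against 2 can give, so none can pass 0.05. The log2 ratio of the tRNA share to the short gene share differed by −1.59 (NSC minus ESC), and that to the coding gene end share by −2.33, each with an exact permutation p of 0.33. Without ESC2 the difference in tRNA genes was −10, and without ESC1 it was −102, so its size rests on which ESC library is used. With only peaks of −log10 q of at least 5, the counts were 135 and 129 in the NSC libraries and 128 and 224 in the ESC libraries, so the groups overlapped and the exact permutation p was 1. With every list cut to its 4054 strongest peaks, the counts were 85 and 84 in the NSC libraries and 160 and 216 in the ESC libraries.

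Genes were then classed by the libraries that listed a peak. NSC-only means a peak in both NSC libraries and no ESC library, and ESC-only the converse. Of the 419 tRNA genes, 10 were NSC-only (2.39%) and 53 were ESC-only (12.6%). Another 91 had a peak in all 4 libraries (21.7%), 31 in both NSC libraries and ESC2 (7.4%), 53 in ESC2 alone (12.6%), 34 in another pattern (8.11%) and 147 in no library (35.1%). Among other short genes, 0.786% were NSC-only, 0.112% ESC-only, 0.449% in all 4 libraries, 0.53% in both NSC libraries and ESC2, 0.433% in ESC2 alone, 1.12% in another pattern and 96.6% in none. Among coding gene ends, 14.6% were NSC-only, 0.12% ESC-only, 4.42% in all 4 libraries, 9.98% in both NSC libraries and ESC2, 1.41% in ESC2 alone, 11.2% in another pattern and 58.2% in none. Without ESC2 the NSC-only count was 41, and without ESC1 the ESC-only count was 106, so both classes depend on which ESC library is used. With every list cut to equal length, 0 tRNA genes were NSC-only, 59 were in all 4 libraries and 11 were in both NSC libraries and ESC2.

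The same peaks were counted again after overlapping peaks of the libraries were merged into regions, of which 239 among 43134 lay at tRNA genes. Of the 13247 NSC-only regions, 9 lay at a tRNA gene (0.0679%). Of the 716 ESC-only regions, 51 did (7.12%, 95% Wilson interval 5.46 to 9.25). Of the 1422 regions with a peak in all 4 libraries, 74 did (5.20%, 4.17 to 6.48). Of all regions, 30.7% were NSC-only, 1.66% ESC-only, 3.3% in all 4 libraries, 6.0% in both NSC libraries and ESC2, 14.6% in ESC2 alone and 43.7% in another pattern. Of the regions at tRNA genes, 3.77% were NSC-only, 21.3% ESC-only and 31.0% in all 4 libraries. Another 10.5% were in both NSC libraries and ESC2, 22.6% in ESC2 alone and 10.9% in another pattern. Of the 6318 regions in ESC2 alone, 54 lay at a tRNA gene (0.855%).

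Within each list, peaks at tRNA genes ranked high. The strengths below are the authors' own and are read only within 1 list. Ranked by −log10 q, the median peak at a tRNA gene stood at percentile 83.4 of its list in NSC1 and 81.9 in NSC2, against 81.5 in ESC1 and 87.5 in ESC2. The strongest 10% of the list held 48 of 123 such peaks in NSC1 and 42 of 128 in NSC2, against 36 of 147 in ESC1 and 101 of 225 in ESC2. Their median fold over the local background was 6.75 and 6.37 in the NSC lists and 5.38 and 6.10 in the ESC lists, against 5.49, 5.50, 4.58 and 4.62 over all peaks of NSC1, NSC2, ESC1 and ESC2. They were also wide, with medians of 575 and 507.5 bp in NSC and 321 and 428 bp in ESC, against 328, 309, 262 and 277 bp over all peaks of those lists. A wide peak reaches a fixed window more easily, so part of this width may come from the choice of peaks, which was not tested. Peaks over 2 or more tRNA genes numbered 24 and 21 in NSC and 16 and 24 in ESC, with at most 4 genes under 1 peak.

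Summits lay on or beside the gene, which is partly set by the rule that a peak reach within 200 bp of it. These distances were not compared with those at other features. The median absolute distance of the nearest summit from the gene centre was 49.5 bp in NSC1 and 52.5 bp in NSC2. It was 36.5 bp in ESC1 and 35.5 bp in ESC2. Within 100 bp of the centre were 110 of 151 genes in NSC1 and 110 of 149 in NSC2, against 136 of 160 in ESC1 and 219 of 252 in ESC2. The table used here gives no strand for tRNA genes, so summits before and after the gene could not be told apart.

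**Figure D2:**
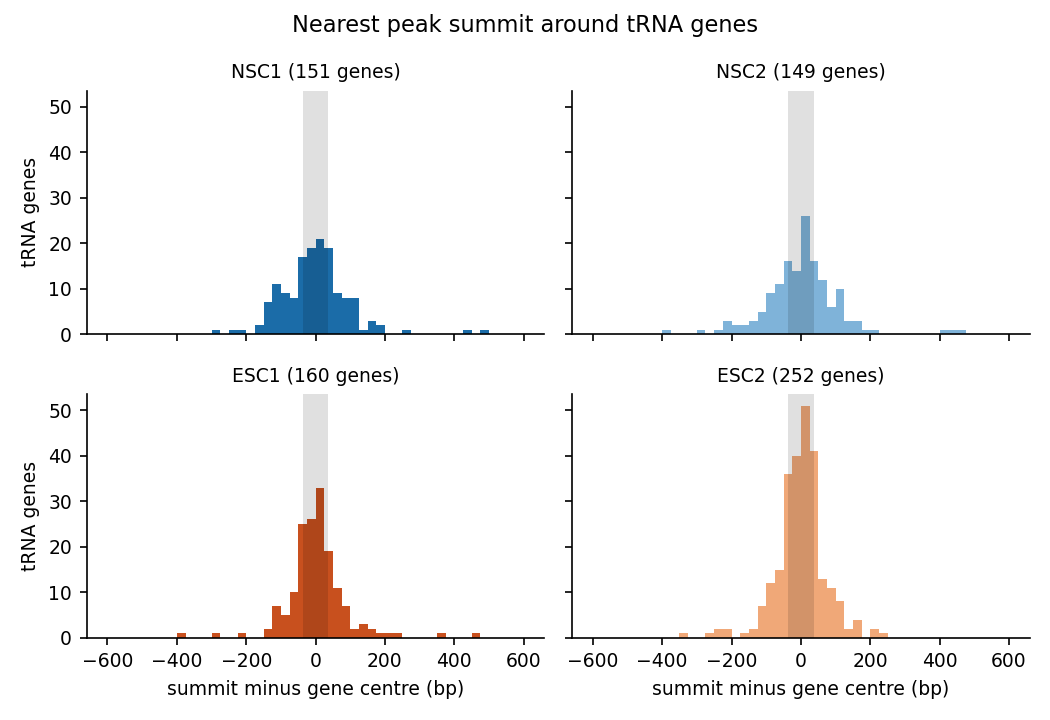
Each panel counts tRNA genes (vertical axis) by the distance in bp from the gene centre to the nearest peak summit (horizontal axis, in coordinate order) in NSC1, NSC2, ESC1 and ESC2, and the grey band marks the length of a typical tRNA gene. The median absolute distances are 49.5 and 52.5 bp in NSC and 36.5 and 35.5 bp in ESC, and 1 gene of NSC1 lies beyond the axis. Only peaks that reach within 200 bp of the gene enter, so short distances are partly set by that rule.

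Every amino acid was represented among the genes with a peak, and 20 of the 22 groups (20 standard amino acids, with initiator methionine apart, and selenocysteine) had a gene with a peak in all 4 libraries, the exceptions being selenocysteine and tryptophan. In 9 of 22 groups both NSC libraries had fewer genes with a peak than both ESC libraries, in 0 groups more, and in 13 the counts overlapped. The 9 were alanine, cysteine, glutamine, histidine, leucine, lysine, proline, serine and tyrosine. These counts are descriptions with no test, and they share the order seen over all tRNA genes (36.0% and 35.6% in NSC, 38.2% and 60.1% in ESC).

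Serine and proline tRNA genes showed the order most plainly. Of 26 serine genes, 8 and 8 had a peak in the NSC libraries, against 14 and 20 in the ESC libraries, and 8 were ESC-only. Of 20 proline genes, 9 and 10 had a peak in the NSC libraries, against 15 and 18 in the ESC libraries, and 2 had none anywhere. Of 32 leucine genes, 13 and 14 had a peak in the NSC libraries and 19 and 17 in the ESC libraries. Leucine was a group in which ESC1 exceeded ESC2, although ESC1 has the shorter list.

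Other groups had like counts in the 2 cell types. Of 26 arginine genes, 15 and 15 had a peak in the NSC libraries, against 13 and 19 in the ESC libraries, and 11 were in all 4. Of 30 glycine genes, 10 and 11 had a peak in NSC, against 8 and 11 in ESC. Of 11 phenylalanine genes, 5 and 6 had one in NSC, against 3 and 6 in ESC. In these groups ESC1 was below both NSC libraries and ESC2 was at or above them.

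Cysteine had the lowest share in the NSC. Of its 29 genes, all with the anticodon GCA, 3 and 3 had a peak in the NSC libraries, against 6 and 11 in the ESC libraries, and 18 had none anywhere. Most cysteine genes lie on chromosome 7, where 22 tRNA genes of all kinds had a peak at 1 and 1 in the NSC libraries and at 6 and 7 in the ESC libraries. The chromosome 17 copies TRC-GCA2-3 and TRC-GCA2-4 had peaks in all 4 libraries, the NSC1 peak covering both, with −log10 q of 35.6 and 25.0 for the first in the NSC libraries and 8.61 and 13.9 in the ESC libraries.

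**Figure D3:**
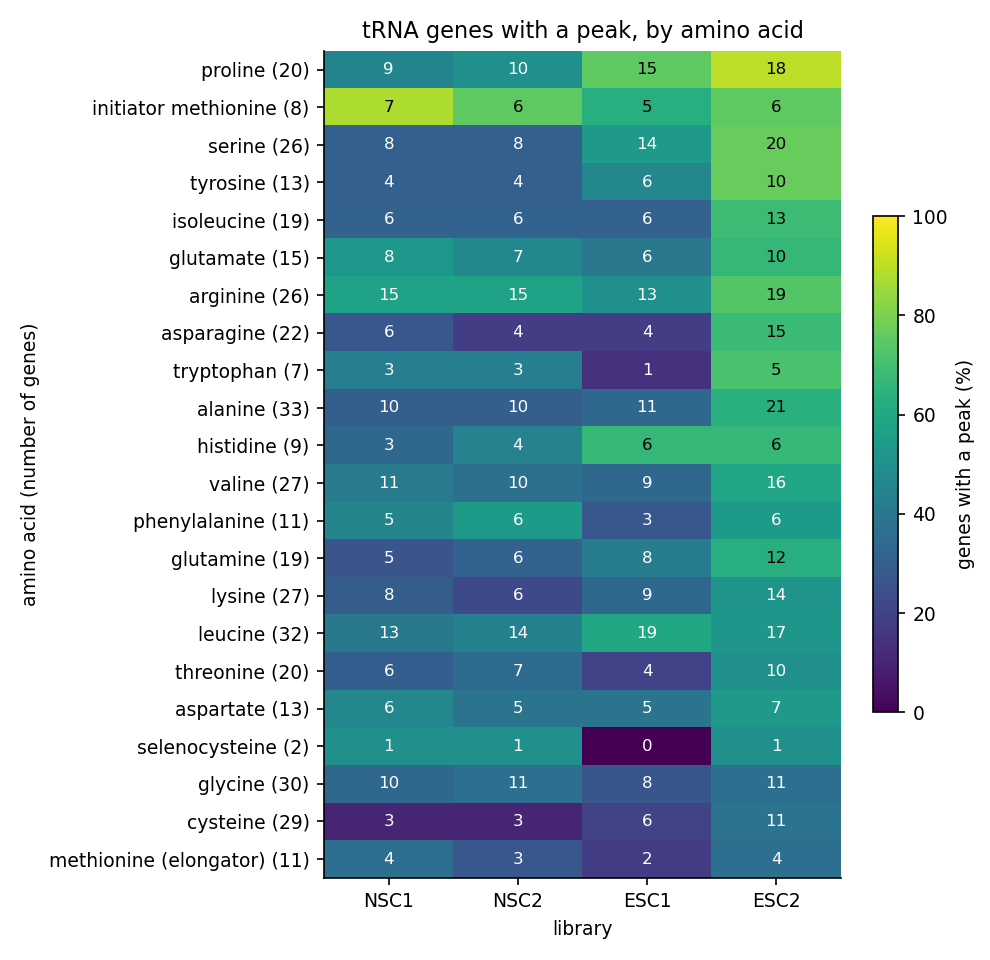
Rows are amino acids with their number of tRNA genes, ordered by the share with a peak in any library, columns are NSC1, NSC2, ESC1 and ESC2, and each cell gives the number of genes with a peak, coloured by its percent of the group. Proline is highest in ESC2 with 18 of 20 genes, initiator methionine is highest in NSC1 with 7 of 8, and cysteine is lowest in NSC with 3 of 29.

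Start codons and the recoded stop codon are read by special tRNAs. The initiator methionine tRNA, which starts every protein and is named TRX-CAT in the table, had 8 genes, of which 7 and 6 had a peak in the NSC libraries, against 5 and 6 in the ESC libraries, and 5 were in all 4. TRX-CAT1-1 on chromosome 1 had −log10 q of 28.1 and 32.3 in NSC and 15.7 and 41.3 in ESC. TRX-CAT1-6 had 9.01 and 9.89 in NSC and 37.7 and 66.8 in ESC. TRX-CAT1-4 had no peak, TRX-CAT1-2 had a peak in NSC1 alone (2.98), and TRX-CAT1-5 was listed at 4.00 and 1.81 in NSC and 11.6 in ESC2. The elongator methionine tRNA, which serves codons inside the message, had 11 genes, with a peak at 4 and 3 in NSC and at 2 and 4 in ESC. Most initiator genes thus had a peak in both cell types, while most elongator genes did not.

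Selenocysteine tRNA decodes UGA as selenocysteine. Of its 2 genes, TRU-TCA1-1, at chr19:45478601-45478687, had −log10 q of 5.25 and 4.51 in the NSC libraries and 9.21 in ESC2, with no peak in ESC1. TRU-TCA2-1 had none in any library.

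By anticodon, 38 families had 5 or more genes. Both NSC libraries were below both ESC libraries in 14 of them, above in 1, and overlapping in 23. The family with higher NSC counts was glycine GCC, with 4 and 5 of 13 genes in NSC and 2 and 3 in ESC. Serine AGA had 1 and 2 of 10 genes in NSC, against 6 and 7 in ESC, with 5 genes ESC-only and 0 in all 4 libraries. Alanine TGC had 2 and 2 of 8 genes in NSC, against 5 and 8 in ESC. Leucine CAG had 4 of 9 genes in each library, the same 4 throughout. Asparagine GTT, with 22 genes, had 6 and 4 in NSC and 4 and 15 in ESC, so here ESC1 did not stand above the NSC libraries.

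The clusters differed in their classes. Of the 139 tRNA genes on chromosome 6 at 26 to 29 Mb, 28 and 29 had a peak in the NSC libraries (20.1% and 20.9%), against 45 and 85 in the ESC libraries (32.4% and 61.2%). This cluster held 24 of the 53 ESC-only genes, 31 of the 53 genes listed in ESC2 alone, 2 of the 10 NSC-only genes and 14 of the 91 listed in all 4 libraries. Coding gene ends of the same region did not share that order, with 38 and 37 of 87 in the NSC libraries and 8 and 37 in the ESC libraries. Within it, the 56 tRNA genes at 27 to 28 Mb had peaks at 9 and 10 in NSC, against 22 and 39 in ESC, and 14 of them were ESC-only.

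The chromosome 17 genes were mostly occupied in both cell types. Of 33 genes, 24 and 23 had a peak in the NSC libraries (72.7% and 69.7%), against 21 and 29 in the ESC libraries (63.6% and 87.9%), 16 were in all 4 and 3 were in none. On chromosome 16, 11 and 11 of 26 genes had a peak in NSC, against 12 and 18 in ESC. On chromosome 1, 18 and 16 of 84 genes had one in NSC, against 21 and 35 in ESC, and 46 had none in any library. The 46 included every member at chr1:161440171-161480636, a run in which copies of the same isodecoders recur. Whether reads could be placed there was not tested. The 137 genes elsewhere had peaks at 70 and 70 in NSC, against 61 and 85 in ESC, and held 44 of the 91 genes in all 4 libraries. The NSC counts were below both ESC counts on chromosomes 6, 1 and 16 and overlapped them on chromosome 17 and elsewhere.

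**Figure D4:**
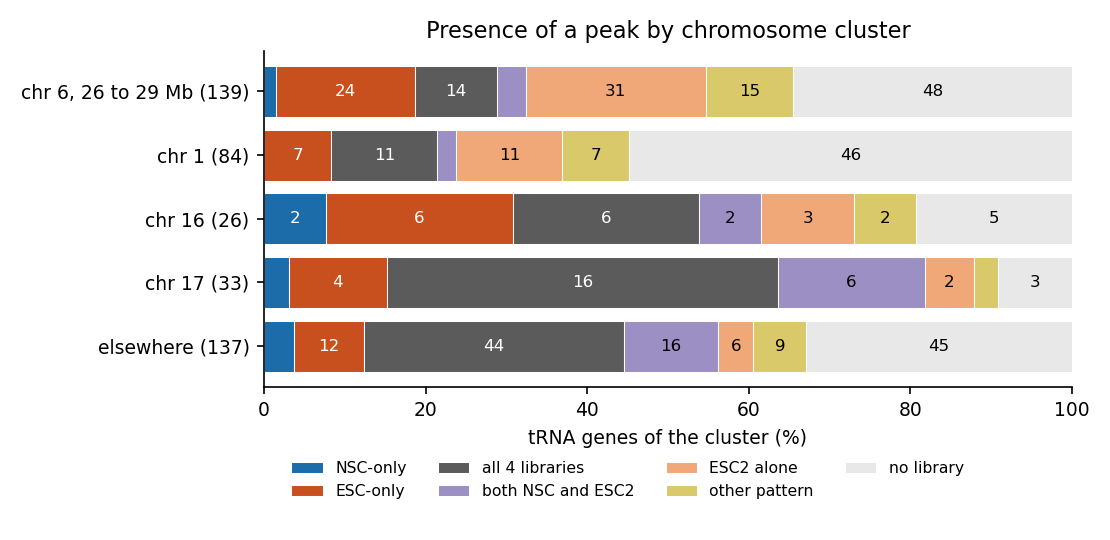
Each bar is a chromosome cluster with its number of tRNA genes, divided by the libraries that listed a peak, with the horizontal axis in percent of the cluster's genes and counts of 2 or more written where they have room. The ESC-only part is 24 of 139 genes on chromosome 6 and 4 of 33 on chromosome 17, and the part in all 4 libraries is 14 of 139 and 16 of 33.

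Distance to protein-coding genes ran with the classes. Of 54 tRNA genes within 1 kb of the end of a coding gene, 46 and 46 had a peak in the NSC libraries (85.2% and 85.2%), against 29 and 45 in the ESC libraries (53.7% and 83.3%). At 1 to 10 kb, 52 and 48 of 95 had one in NSC, against 53 and 75 in ESC. Beyond 10 kb, 53 and 55 of 270 had one in NSC (19.6% and 20.4%), against 78 and 132 in ESC (28.9% and 48.9%). Beyond 10 kb both NSC counts were below both ESC counts. Within 1 kb they exceeded that of ESC2 by 1 gene, so that only ESC1, with the shortest list, stood clearly lower. Of the 53 ESC-only genes, 41 lay over 10 kb from a coding gene end and 2 within 1 kb. Of the 91 genes in all 4 libraries, 25 lay within 1 kb, and of the 31 in both NSC libraries and ESC2, 15 did. The median distance was 25336 bp for ESC-only genes, 4219 bp for genes in all 4 libraries and 47279 bp for genes in no library. Peaks near a coding gene end could belong to that end or to the tRNA gene, which was not tested beyond this count: with tRNA genes left out whose 200 bp flanks came within 1 kb of a coding gene end, 102 and 100 of 362 tRNA genes had a peak in NSC, against 129 and 205 in ESC.

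**Figure D5:**
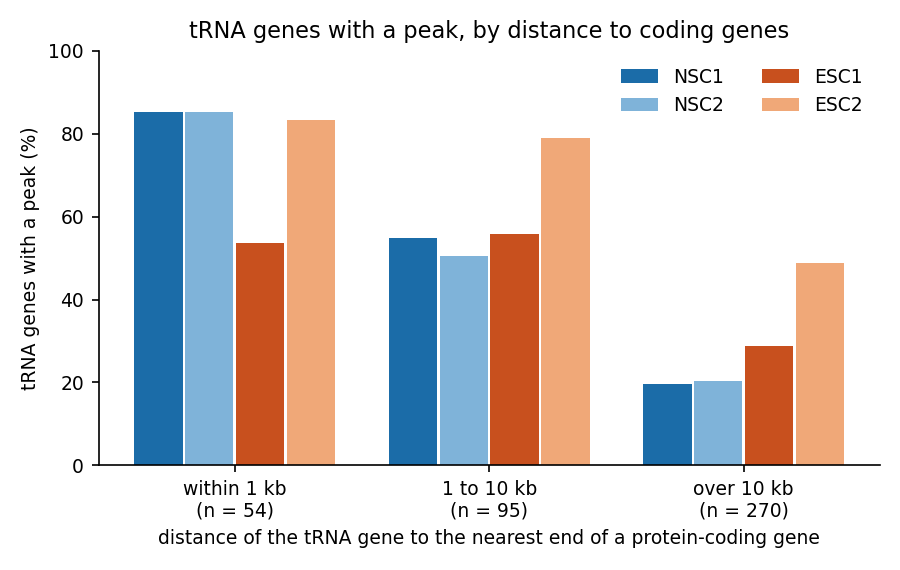
Bars give the percent of tRNA genes with a peak in NSC1, NSC2, ESC1 and ESC2, for genes within 1 kb, at 1 to 10 kb and over 10 kb from the nearest end of a protein-coding gene. The NSC bars stand at 85.2% nearest to coding genes and at 19.6% and 20.4% farthest from them, where the ESC bars stand at 28.9% and 48.9%.

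The counts also differed by the distance to the next tRNA gene. Of 131 tRNA genes with another within 1 kb, 77 and 77 had a peak in the NSC libraries, against 80 and 92 in the ESC libraries, and 60 were in all 4. Of 149 with the nearest at 1 to 10 kb, 20 and 21 had one in NSC, against 41 and 84 in ESC, 29 were ESC-only and 10 were in all 4. At that spacing another 33 were in ESC2 alone and 60 in no library, against 3 and 34 of the genes with another within 1 kb. Since 1 peak may cover several packed genes, these genes are not separate observations.

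Copies of the same isodecoder often differed in whether a peak was listed, though not in every family. There were 55 isodecoders with 2 or more copies, holding 217 genes. In 31 of them some copies had a peak in a library and others had none, in 18 every copy had a peak somewhere, and in 6 no copy did. A copy in all 4 libraries stood beside a copy in none in 22 isodecoders, and an ESC-only copy beside a copy in all 4 in 10. Of the 6 copies of TRS-AGA2, 1 and 2 had a peak in NSC, against 5 and 6 in ESC, and 4 were ESC-only. Of the 7 copies of TRL-CAG1, 2 were in all 4 libraries and 5 in none. The 5 lie together at chr1:161441533-161471205, within a run of tRNA genes that had no peak in any library. Genes with isodecoder number 4 or above had a peak at 28 and 23 of 149 in NSC, against 34 and 71 in ESC, and 72 had none. Genes with isodecoder number 1 had one at 57 and 57 of 112 in NSC, against 49 and 69 in ESC. Near-identical copies are hard to place with short reads, and whether reads were lost or moved between copies was not tested.

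The strongest tRNA genes with a peak in all 4 libraries lay close together in pairs and groups. The entry over TRY-GTA2-1 and TRA-AGC8-1, a tyrosine and an alanine tRNA gene inside the coding gene AGBL5 on chromosome 2, had −log10 q of 52.8 and 45.0 in NSC and 32.6 and 60.6 in ESC. That over TRL-CAA4-1 and TRE-CTC2-1, a leucine and a glutamate tRNA gene in PGBD2 on chromosome 1, had 48.0 and 52.8 in NSC and 28.5 and 70.3 in ESC. TRH-GTG1-7, a histidine tRNA gene in SHF on chromosome 15, had 42.6 and 36.4 in NSC and 23.6 and 44.2 in ESC. TRH-GTG1-7 lies a few kb from TRH-GTG1-9, shown above, which was ESC-only.

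A chromosome 17 group, at chr17:8186358-8187666, held TRW-CCA3-3, TRS-GCT4-3, TRT-AGT1-1 and TRI-AAT5-5, for tryptophan, serine, threonine and isoleucine. Its −log10 q values were 39.7 and 21.5 in NSC and 42.4 and 87.7 in ESC, and TRW-CCA3-3 lay outside the ESC1 peak. The valine genes TRV-TAC1-1 and TRV-TAC2-1 with the arginine gene TRR-TCT3-2, on chromosome 11, had 31.9 and 28.9 in NSC and 52.7 in ESC2. In ESC1, TRV-TAC1-1 had 23.2, while TRV-TAC2-1 and TRR-TCT3-2 shared a peak of 30.2. TRG-TCC3-1, TRD-GTC2-11 and TRP-CGG1-3, in LINC00324 on chromosome 17, had 45.0 and 22.4 in NSC and 61.4 in ESC2. In ESC1, TRG-TCC3-1 had 30.0, while TRD-GTC2-11 and TRP-CGG1-3 both had 19.3. Over all 91 genes in all 4 libraries, the median −log10 q was 23.2 and 18.5 in NSC and 12.2 and 30.2 in ESC. Their median percentile in NSC2 was 93.3 and in ESC1 88.4, so they were among the stronger peaks of those lists.

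The 10 NSC-only genes were weaker. Their −log10 q ran between 2.65 and 14.9 in NSC1 and between 4.12 and 14.1 in NSC2, with medians of 8.83 and 7.63. TRK-TTT3-5, a lysine tRNA gene at chr17:8119155-8119227 and 239 bp from the end of a coding gene, had 8.69 and 14.1. TRG-CCC2-2, the glycine gene printed above, at chr16:636736-636806 and 431 bp from a coding gene end, had 10.8 and 8.85. TRV-AAC1-1, a valine gene at chr3:169772230-169772302, had 9.03 and 10.0. The others named by rank were TRF-GAA1-2 (14.9 and 5.35) and its neighbour TRE-CTC1-6 (6.66 and 9.22), TRK-CTT1-2 (8.97 and 6.84) and TRG-GCC2-4 inside VAC14 (13.4 and 5.31). An ESC peak lay within 1 kb of 5 of the 10, so in those the ESC had signal past the threshold beside the gene.

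The 53 ESC-only genes stood at a median percentile of 72.7 in the ESC1 list and 91.6 in the ESC2 list. The NSC-only genes stood at 73.1 in NSC1 and 68.7 in NSC2, so only ESC2 was clearly higher. The −log10 q of the ESC-only genes ran between 2.30 and 25.9 in ESC1 and between 4.17 and 56.5 in ESC2. The medians were 6.19 and 16.6. TRV-CAC1-4 and TRL-AAG1-3, a valine and a leucine gene under 1 peak on chromosome 5, had 25.9 and 43.9. TRA-TGC7-1, an alanine gene on chromosome 6, had 23.5 and 40.8, and lay 100132 bp from the nearest coding gene end. TRE-TTC3-1, a glutamate gene in LINC03126 on chromosome 1, had 18.9 and 56.5. TRL-AAG2-2, the leucine gene printed above, had 18.7 and 25.6. TRL-CAA3-1 had 13.8 and 39.5, and TRY-GTA5-3 had 13.8 and 34.4. An NSC peak lay within 1 kb of 7 of the 53 and within 10 kb of 26.

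Genes listed in both NSC libraries and ESC2, but not in ESC1, whose list is the shortest, were often near coding genes. TRW-CCA4-1, a tryptophan gene on chromosome 12, lay under peaks of −log10 q 29.5 and 22.9 in NSC and 28.8 in ESC2 that it shared with TRD-GTC1-1, an aspartate gene with an ESC1 peak of its own (12.2). TRE-CTC1-7, a glutamate gene 797 bp from a coding gene end, had 22.8 and 20.7 in NSC and 12.2 in ESC2. TRM-CAT6-1 inside FBXO31 had 25.3 and 20.6 in NSC and 8.73 in ESC2. TRG-GCC2-2 inside GPD2 lay under peaks of 15.4 and 17.1 in NSC and 11.2 in ESC2, shared with TRA-CGC3-1. TRY-GTA5-2 and TRA-AGC8-2 inside TRIM55 lay under 1 peak in each of these lists, of 33.4 and 17.6 in NSC and 7.89 in ESC2, and the NSC1 peak also covered TRY-GTA5-1. The ESC2 peaks of TRE-CTC1-7, TRM-CAT6-1, TRG-GCC2-2 and TRY-GTA5-2 stood at percentiles 86.2, 78.7, 84.6 and 75.8 of the ESC2 list, and that of TRW-CCA4-1 at 96.8.

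The strongest peaks of 1 cell type were more often listed in the other than the weakest. Among the 160 tRNA genes with an ESC1 peak, cut into 4 groups of 40 by −log10 q, the share with a peak in both NSC libraries was 40.0%, 50.0%, 62.5% and 80.0% from the weakest group to the strongest. For ESC2, in groups of 63, it was 27.0%, 44.4%, 44.4% and 77.8%. Among genes with an NSC1 peak, the 4 groups from weakest to strongest had 6, 8, 0 and 0 genes with no ESC peak, and for NSC2 9, 4, 1 and 0. The share with a peak in both ESC libraries was 52.6%, 39.5%, 78.4% and 89.5% over the NSC1 groups and 34.2%, 70.3%, 62.2% and 97.3% over the NSC2 groups, so it did not climb at every step. In the strongest ESC groups, 12.5% of the ESC1 genes and 12.7% of the ESC2 genes still had no peak in either NSC library.

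The genes that make and use tRNA had more peaks in NSC than in ESC, as other coding genes did. Their NSC shares stood above those of all coding genes. They were 83.3% and 94.4% for polymerase III subunits and 70.6% and 58.8% for initiation factors. For aminoacyl-tRNA synthetases they were 91.3% and 82.6%, and for processing genes 83.3% and 70.8%. In ESC these lists also stood above all coding genes, except polymerase III subunits in ESC1 (5.56%). These differences were not tested. Over all 19126 protein-coding genes, a peak lay within 1 kb of an end in 43.5% and 38.7% in the NSC libraries, against 6.8% and 23.2% in the ESC libraries, and 16.4% were NSC-only, 0.251% ESC-only, 6.01% in all 4, 12.7% in both NSC libraries and ESC2, 2.11% in ESC2 alone, 12.0% in another pattern and 50.5% in none. Of 18 subunits of RNA polymerase III, those shared with other polymerases included, 15 and 17 had a peak in NSC, against 1 and 5 in ESC, with 11 NSC-only. The NSC-only subunits included POLR3D, with −log10 q of 11.6 and 5.06, and POLR3G, with 10.4 and 4.08. The 1 subunit gene with a peak in all 4 libraries was POLR3E, and a tRNA gene, TRL-AAG2-4, lies 188 bp from its start. The peaks there had −log10 q of 17.3 and 24.1 in NSC and 6.81 and 36.2 in ESC. No other gene of the 5 lists described here had a tRNA gene within 1 kb of an end.

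Of 17 genes for initiation factors of polymerase III and its repressor MAF1, 12 and 10 had a peak in NSC, against 3 and 8 in ESC. GTF3C2, a subunit of TFIIIC, had −log10 q of 27.1 and 19.6 in NSC and 6.73 and 14.4 in ESC. TBP, the TATA-binding protein and a part of TFIIIB, had 22.1 and 30.7 in NSC and 4.33 and 17.2 in ESC. BDP1, also of TFIIIB, was NSC-only (5.70 and 6.23), and BRF1 of the same complex had no peak. Of 23 genes for cytosolic aminoacyl-tRNA synthetases, which load tRNAs with amino acids, and for AIMP1, AIMP2 and EEF1E1, the scaffold proteins that hold several of them together, 21 and 19 had a peak in NSC, against 6 and 14 in ESC, as in YARS1, the tyrosine enzyme, with 19.9 and 31.0 in NSC and 8.77 and 13.3 in ESC. Of 24 genes for tRNA processing, modification and export, 20 and 17 had one in NSC, against 4 and 10 in ESC, as in TSEN34, a nuclease subunit that removes tRNA introns, with 44.6 and 30.7 in NSC and 20.1 and 28.0 in ESC.

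Other genes that polymerase III transcribes had peaks in both cell types. Of 21 such genes, 11 and 9 had a peak in the gene or within 200 bp in NSC, against 5 and 9 in ESC. Among them 0 were NSC-only and 0 ESC-only, 5 were in all 4 libraries and 8 in none. With the same window, 2.62% and 2.04% of other genes of up to 200 bp had a peak in NSC, against 0.61% and 1.73% in ESC. RN7SK, RPPH1, RN7SL1, RN7SL2 and RMRP are longer than that, so the comparison is unlike in length. Of the polymerase III genes in all 4 libraries, only VTRNA1-3 is that short. RN7SK, the RNA that holds the elongation factor P-TEFb inactive, had −log10 q of 49.0 and 43.1 in NSC and 15.4 and 38.9 in ESC. RN7SL1, the RNA of the signal recognition particle, had 29.3 and 32.2 in NSC and 18.2 and 45.6 in ESC. RMRP, the RNA of the RNase MRP nuclease, had 29.6 and 26.6 in NSC and 7.32 in ESC2, with no peak in ESC1. In all 5 lists of genes no ESC-only gene was found. ESC-only genes were also rare among all protein-coding genes (0.251%) and other short genes (0.112%), so lists of this size would seldom hold one. Of the 419 tRNA genes, 53 were ESC-only. The window was 1 kb for the lists of coding genes, and 200 bp for the other polymerase III genes and the tRNA genes. These counts are descriptions, and the difference between the lists and the tRNA genes was not tested.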

How the data were processed

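BAF45D CUT&Tag was measured in 2 NSC and 2 ESC libraries, each with its own deposited peak list. Reads went through FastQC, Trimmomatic and BWA 0.7.12 against hg38, as the submitters' processing notes list them. The peak caller was MACS2 2.1.0.20150420, run on 1 library at a time, per the file headers. It had no control and a q limit of 0.05, moved tags by -100 bp and extended them to 200 bp, and took its wide background over 10000 bp. Its input carried unique and deduplicated in its name, and the caller was set to keep duplicates. The pileup was deposited as a signal at the summit, and the fold is the authors' ratio of it to the local background. The deposited −log10 p-value and −log10 q-value describe a peak within its own library. All positions and lengths are those of the deposited lists. These strengths are the authors' and were used only within 1 list. No untargeted-antibody library was analysed here.

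Entries with the same start and end were joined, keeping the strongest −log10 q. Gene positions came from RefSeq, GRCh38.p14, which gave no strand for tRNA genes, so intervals were compared with 1-based positions and no strand. TRX-CAT was read as initiator methionine. No sample was left out, and no p adjusted over many features was computed. Within each class the text names up to 6 entries with the highest mean percentile of −log10 q, and within each list of pathway genes up to 4, plus genes singled out after their values were seen. Those were the paired copies, the cysteine genes of chromosome 17, the TRS-AGA2 and TRL-CAG1 copies, TRY-GTA5-5, TRD-GTC1-1, TRA-CGC3-1, POLR3D, POLR3G, POLR3E, BRF1, BDP1 and RMRP. The members, lists and tests were chosen with earlier results of these data known. A peak list gives no reads where no peak was called, so an absent peak means that the threshold was not passed, and Wilson intervals at 95% cover counting error only. Counting was checked on simulated data. Tools were Python 3.11.15, pandas 2.3.3, numpy 2.4.6, scipy 1.17.1 and matplotlib 3.10.9. The alternatives were the window, the strength threshold, equal list lengths, leaving out genes near coding gene ends, merged windows, chromosome X, each library left out, and pairs by library number. The numbers 1 and 2 were not shown to pair libraries of the 2 cell types.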

Additional observations from a re-analysis of the deposited data

Results flagged for a closer look

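The number of tRNA genes with a peak and the number of other short genes with a peak moved in opposite directions between the cell types. The NSC minus ESC difference of the means was -56 for tRNA genes and 72 for other genes of up to 200 bp. The log2 ratio of the 2 shares differed by −1.59 (NSC minus ESC), with an exact permutation p of 0.33, the smallest that 2 libraries against 2 can give.

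Peaks were also found at tRNA genes outside the members. Of 4 tRNA genes on chromosome X, 1 had a peak in NSC1 and 1 in NSC2, against 0 in ESC1 and 1 in ESC2. Of 20 tRNA genes whose symbols carry no numbers, 0 and 0 had a peak in the NSC libraries, against 1 in ESC1 and 2 in ESC2. Of the 22 mitochondrial tRNA genes, 12 lay under a peak in NSC1 and 15 in NSC2, against 12 in ESC1 and 13 in ESC2. Peaks were called with no control, so whether those on mitochondrial DNA reflect BAF45D was not tested.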

How the results depend on the processing

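The NSC minus ESC difference in tRNA genes with a peak, -56, stayed negative under every alternative listed here. It was -53.5 with no flank and -57 with flanks of 500 or 1000 bp. It was -44 at a −log10 q of at least 5, -103.5 with lists of equal length and -66 away from coding gene ends. Leaving out 1 library gave -102 to -10. The share of tRNA genes minus that of other short genes, 40.7 points, ran between 31.7 and 44.5 over the other settings, and between 34.8 and 43.2 with 1 library left out. Pairing libraries by number as a replicate block gave the same values, -56 and 40.7, with pairs of -9 and -103 genes for the first and an exact permutation p of 0.5 for each, the smallest that 2 pairs allow. No call was changed by it.

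The classes moved more. With lists of equal length there were 0 NSC-only genes, 59 in all 4 libraries and 11 in both NSC libraries and ESC2, against 10, 91 and 31 as reported. Away from coding gene ends there were 5 NSC-only genes and 16 in both NSC libraries and ESC2, but fewer genes enter that setting. With 1 library left out, NSC-only genes ran between 12 and 41 (41 without ESC2), ESC-only genes between 53 and 106 (106 without ESC1), genes in all 4 between 93 and 122, and genes in both NSC libraries and ESC2 between 35 and 37, where leaving out an ESC library gives no value. A class over fewer libraries asks for less, so these counts can only grow. ESC-only genes numbered 37 at a −log10 q of at least 5 and 78 with lists of equal length. Adding the tRNA genes without numbers, an alternative chosen after seeing the data, gave -57.5. The ESC libraries had more tags but shorter lists, so the depth needed to list a peak cannot be told apart from the cell type.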
